A study of Homo sapiens with 2 samples.

Results

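The 9 members described here are the human genes of the chaperonin TRiC, also called CCT: TCP1, CCT2, CCT3, CCT4, CCT5, CCT6A, CCT7 and CCT8, which encode the 8 subunits of its ring, and CCT6B, a paralog of CCT6A. They are listed by name, as the known subunits and this paralog, with no threshold on a measured value, and each symbol matched 1 Ensembl identifier among the 57736 genes of the expression tables. The study sequenced poly(A)+ RNA of HEK293T, an established line derived from human embryonic kidney, labelled wild type, with 50 bp reads. The series has 1 group, heat shock, in which cells were kept for 20 min at 43 °C and then for 6 h at 37 °C before lysis. The heating time is that of the labels; the paper states a longer one for its shorter recovery and none separately for this one. The group has 2 replicate libraries, lysed separately, and nothing in the labels says more of how independent the cultures were, so the spread between them may be technical. Untreated cells were not analysed here, so no value below measures a change with heat shock.

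TRiC is a barrel of 2 stacked rings, and each ring holds 1 copy of each of the 8 subunits in a fixed order. It closes over a bound protein in a cycle driven by ATP, and it is known above all for folding newly made actin and tubulin. Prefoldin, a hexamer, delivers unfolded chains to it, and phosducin-like proteins act as cofactors. The subunits TCP1, CCT2, CCT4 and CCT5 are known to form the side of the ring that hydrolyses ATP more strongly, and CCT3, CCT6A, CCT7 and CCT8 the weaker side.

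The summed expected count, RSEM's estimate of the reads of each gene with multi-mapped reads shared out, was 22529828 in replicate 1 and 26890199 in replicate 2. Of the HEK293T markers, 5 of 7 were matched and all 5 were detected, at 7.35 TPM (transcripts of each 1000000) for PAX2 to 647 TPM for VIM, while 0 of 6 markers of differentiated kidney and 0 of 4 of testis reached 1 TPM. NEFL and LHX1 were not matched. All 8 ring subunits passed detection, set at 1 TPM or more in both libraries, as did 15188 genes in all, and CCT6B did not.

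CCT3 and CCT7 stood above the rest of the ring. Positions given with the members are those of the whole gene on GRCh37, and each is annotated as protein-coding. CCT3, the gamma subunit (chr1:156278759-156337664, minus strand), had 843 TPM in replicate 1 and 743 TPM in replicate 2, a mean of 793 ± 71.1 (SD, n = 2), and CCT7, the eta subunit (chr2:73460548-73480149, plus strand), had 763 and 654 TPM, a mean of 709 ± 77.1. Their ranges overlapped across libraries, although CCT3 was the higher in each. Together they held 52.1% of the TPM of the ring in replicate 1 and 46.9% in replicate 2, where equal levels would give 25%. Both belong to the side of the ring with weaker ATPase activity.

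TCP1, the alpha subunit and the gene after which the family was first named (chr6:160199530-160210735, minus strand), came next. It had 358 and 400 TPM, a mean of 379 ± 29.5, and overlapped with no other subunit. CCT7 lay 2.13-fold above it in replicate 1 and 1.64-fold in replicate 2, and TCP1 lay 1.53-fold and 1.43-fold above CCT8.

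In TPM, the other 5 subunits lay close together. CCT8, the theta subunit (chr21:30428126-30446118, minus strand), had 234 and 280 TPM, a mean of 257 ± 32.7. CCT4, the delta subunit (chr2:62095220-62115806, minus strand), had 245 and 231 TPM, a mean of 238 ± 10.0. CCT5, the epsilon subunit (chr5:10250041-10266501, plus strand), in which a mutation is known to cause a sensory neuropathy, had 234 and 229 TPM, a mean of 232 ± 3.60.
CCT2, the beta subunit (chr12:69979206-69995350, plus strand), known from a form of congenital retinal blindness, had 218 and 214 TPM, a mean of 216 ± 2.34. CCT6A, the zeta subunit (chr7:56119378-56131682, plus strand), had 189 and 226 TPM, a mean of 207 ± 26.5. The highest of these 5 means was 1.24-fold the lowest. In the order of the means, neighbours could not be told apart by their spread between CCT8 and CCT4, CCT4 and CCT5, and CCT2 and CCT6A, nor between CCT3 and CCT7. Within each library, however, the 95% credibility intervals that the tables give for posterior mean TPM did not overlap between CCT3 and CCT7, and CCT3 was 1.10-fold and 1.14-fold CCT7. CCT5 and CCT2 did not overlap across libraries, but their credibility intervals overlapped in both.

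**Figure D1:**
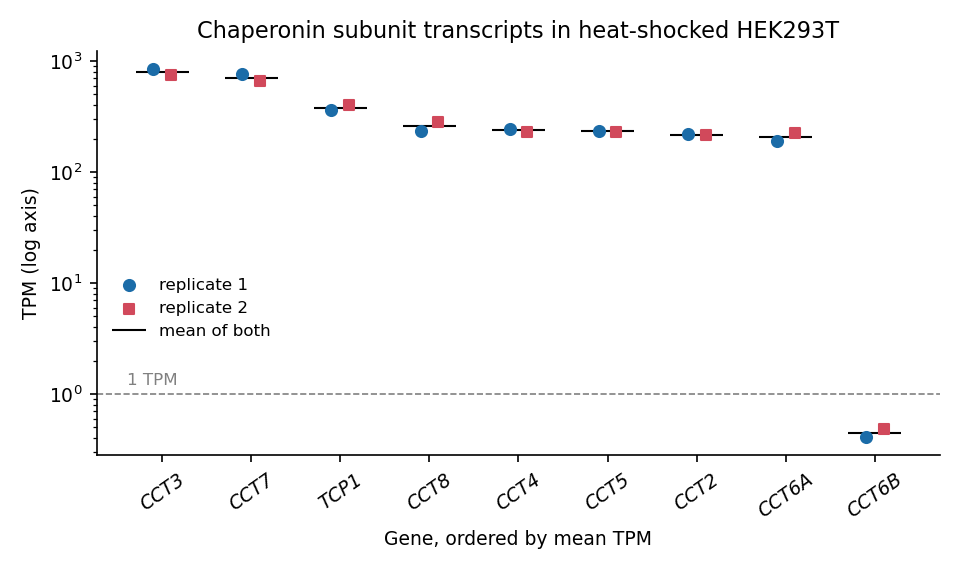
TPM of the 9 members, on a log axis, with a circle for replicate 1, a square for replicate 2 and a line at the mean. The 8 ring subunits lie between 189 and 843 TPM in either library, with CCT3 and CCT7 on top, and CCT6B lies under the dashed line at 1 TPM.

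Over the whole ring, the highest mean was 3.83-fold the lowest, 4.47-fold in replicate 1 and 3.47-fold in replicate 2. Of the 28 pairs of subunits, 25 kept their order in both libraries, and 23 had ranges that did not overlap. The 3 pairs that changed places were CCT2 with CCT6A, CCT4 with CCT8 and CCT5 with CCT8. The subunits with the stronger ATPase had means of 379 TPM (TCP1), 238 (CCT4), 232 (CCT5) and 216 (CCT2), within the span of the weaker side, from 207 (CCT6A) to 793 (CCT3).

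All 8 ring subunits were abundant transcripts. The lowest, CCT6A, had a mean above 95.5% of the 12367 detected protein-coding genes, and the highest, CCT3, above 99.2%. Their summed TPM was 3084 in replicate 1 and 2977 in replicate 2, that is 0.308% and 0.298% of all transcripts. The 3 other genes nearest to the median of the ring in log2 TPM, over the 2 libraries, were MRPL3 at 241 and 253 TPM, SNX3 at 233 and 257 TPM, and SSBP1 at 249 and 259 TPM, at distances of 0.011, 0.044 and 0.060 on the log2 scale.

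The level of a subunit depended on the length it was divided by. TPM divides by a length weighted over the isoforms that the quantifier judged present, and the tables list 6 to 18 transcripts for each ring subunit. For CCT7 that length averaged 883 bases, 47.8% of the 1847 bases of its MANE Select transcript, the representative transcript agreed by RefSeq and Ensembl. For CCT5 it was 1322 bases, 40.2% of 3293. For CCT8 it was 1842 bases, 99.4% of 1854.
Divided by the MANE Select length, the counts gave CCT3 391 ± 55.7 CPM (counts of each 1000000) per kb (n = 2) and CCT7 254 ± 36.1, the same first and second place. CCT8, at 196 ± 18.1, then stood above TCP1, at 168 ± 1.73. CCT5, sixth in TPM, came last, at 71.0 ± 4.38. The highest was then 5.51-fold the lowest, and all 28 pairs kept their order across the libraries. With the longest annotated transcript of each gene in its place, the range was 5.32-fold. The first and second rank of CCT3 and CCT7 thus held per either length, whereas the rank of CCT5 and the gap between CCT3 and CCT7 did not. Nor did the close group of 5 subunits hold per MANE Select kb. They ran from CCT8 at 196, CCT4 at 152, CCT2 at 119 and CCT6A at 104 to CCT5 at 71.0 CPM per kb.

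**Figure D2:**
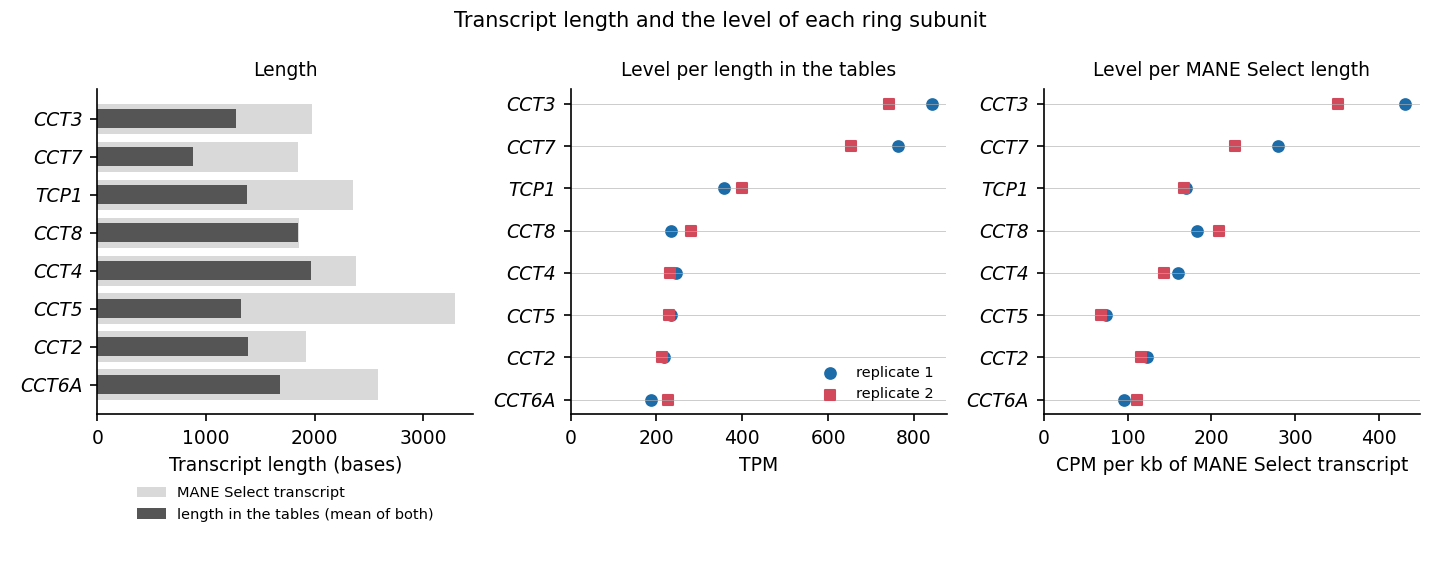
For each ring subunit, the left panel plots the length of the MANE Select transcript (grey) and the mean length in the tables (dark), in bases; the middle panel plots TPM and the right panel CPM per kb of the MANE Select transcript, with 1 point per library. CCT7 and CCT5 have table lengths under 50% of their MANE Select length, and CCT5 moves from 232 TPM, close to 4 other subunits, to the lowest place at 71.0 CPM per kb.

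The paralog of the zeta subunit had few reads. CCT6B (chr17:33254878-33308097, minus strand), known as a testis form of the zeta subunit, had 0.41 TPM in replicate 1 and 0.48 TPM in replicate 2, from 7 and 12 reads, whereas CCT6A had 5577 and 7748. CCT6A was 460-fold higher in TPM in replicate 1 and 471-fold in replicate 2. Of the reads of both genes, CCT6B took 0.125% in replicate 1, with an exact 95% binomial interval of 0.0504 to 0.258%, and 0.155% in replicate 2, with an interval of 0.0799 to 0.270%. These intervals cover counting error only. The testis markers PRM1, PRM2 and TNP1 were at 0 in both libraries, and DDX4 was at 0 and 0.04 TPM. CCT6B overlaps LIG3, a DNA ligase gene at 50.1 and 50.8 TPM, and ZNF830, at 11.1 and 11.4 TPM, both on the opposite strand, and neither the labels nor the methods say whether reads were counted by strand, so even its few reads are uncertain.

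Reads of 50 bases can tell CCT6A from CCT6B but not always from its pseudogenes. Over 907 coding stretches of 50 bases that lie in 1 exon of CCT6A, the best ungapped match in the coding sequence of CCT6B had 4 to 25 mismatches, with a median of 11. In the transcript of CCT6P1, a pseudogene, 31 of these stretches were found unchanged. The stretch of exon 3 closest to CCT6B, on GRCh37, is shown for the 3 genes to make this visible, 5′ to 3′ on the strand of each gene, with capitals at the bases that differ from CCT6A. It lies at chr7:56122062-56122111 (plus strand) in CCT6A, at chr17:33285664-33285713 (minus strand) in CCT6B and at chr7:65219514-65219563 (plus strand) in CCT6P1.
CCT6A: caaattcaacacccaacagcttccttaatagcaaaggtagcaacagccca
CCT6B: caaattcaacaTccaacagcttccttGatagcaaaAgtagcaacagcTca
CCT6P1: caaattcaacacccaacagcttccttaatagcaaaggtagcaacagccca
CCT6B differs from CCT6A at 4 bases, and CCT6P1 at 0, so a read of this stretch could come from CCT6A or from CCT6P1. Among stretches equally close to CCT6B, the choice went to the one with the fewest mismatches to CCT6P1.

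Few reads were given to the pseudogenes. The tables hold 16 genes named after a subunit with P or L added, of which 2 passed detection, both copies of CCT6A. CCT6P3 had 3.04 and 3.49 TPM, and CCT6P1 had 1.55 and 2.89 TPM. The 4 named copies of CCT6A summed to 2.66% of its mean TPM, and those of no other subunit to more than 0.136%. CCT6P1 was higher in replicate 2 by 0.79 on the log2 scale, with an adjusted p of 0.0158 in the exact binomial test between the libraries, and at 0.148 once the trend with GC content described below was removed. CCT4P2, a copy of CCT4, took 0 reads in replicate 1 and 15 in replicate 2. The same exact binomial test called it, at a log2 ratio of 4.67 (adjusted p = 0.00089). With the GC trend removed it was still called, at 3.81 (adjusted p = 0.0192, exact binomial test). Both calls rest on 15 reads of 1 library.
The risk of shared reads differed by subunit. CCT8 shared 13% of the 50-base sequences of its MANE Select transcript with other genes, all of them with CCT8P1, which had 0.30 and 0.33 TPM. TCP1 shared 8.29%, CCT6A 7.61% and CCT5 3.05%. CCT2, CCT3, CCT4, CCT7 and CCT6B shared 0%. ACAT2, at 26.4 and 23.5 TPM, overlaps TCP1 on the opposite strand. The largest posterior SD of a ring subunit's count was 0.151% of that count, in TCP1.

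Several subunit genes start back to back with a gene on the other strand. By the outermost annotated starts on GRCh37, 5 of the 8 ring genes lie within 1000 bases of a protein-coding gene that runs away from them without overlap: TCP1 with MRPL18, CCT4 with COMMD1, CCT5 with ATPSCKMT, CCT6A with PSPH and CCT7 with PRADC1. How often other protein-coding genes have such a neighbour was not counted, so this number cannot be called high or low. By the starts of MANE Select transcripts, a choice made after seeing the data, the pairs within that distance were TCP1 with MRPL18, CCT3 with TSACC, CCT5 with ATPSCKMT, CCT6A with PSPH and, outside the ring, CCT6B with ZNF830.
In each of these ring pairs the subunit was the higher gene in both libraries. Since even the lowest ring subunit lay above 95.5% of detected protein-coding genes, most genes set beside one would be lower. The direction is therefore no trait of these pairs. PSPH, a phosphatase of serine synthesis, had 55.5 and 51.4 TPM, and CCT6A was 3.40-fold and 4.39-fold higher. MRPL18, a mitochondrial ribosomal protein, had 65.1 and 64.9 TPM, and TCP1 was 5.50-fold and 6.16-fold higher. COMMD1 had 9.69 and 7.78 TPM, and CCT4 was 25.3-fold and 29.7-fold higher.
CCT5 was 45.1-fold and 33.2-fold above ATPSCKMT, at 5.20 and 6.91 TPM, and CCT7 was 46.0-fold and 43.1-fold above PRADC1, at 16.6 and 15.2 TPM. The widest gap was that of CCT3, 110-fold and 112-fold above TSACC, at 7.70 and 6.62 TPM. TSACC overlaps the annotated span of CCT3 on the opposite strand, so its reads are uncertain in the same way as those of CCT6B. The pair with CCT6B ran the other way, since ZNF830 had 25.2-fold its mean TPM.

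The stretches between the starts of both genes are shown for the ring pair with the widest gap in level, CCT3, for one with a narrow gap, TCP1, and for the pair that ran the other way, CCT6B. They were taken from RefSeq promoter windows on GRCh38.p14, hold neither transcript by those starts, and are given 5′ to 3′ on the minus strand, on which the member is transcribed. Capitals mark matches, on either strand, of the CCAAT box, of a GC box (GGGCGG), of the core bound by ETS factors (CGGAAG), or of the heat shock pairs GAANNTTC and TTCNNGAA. The stretches are chr1:156338293-156338525, chr6:159789603-159789811 and chr17:34961461-34961539.
CCT3-TSACC: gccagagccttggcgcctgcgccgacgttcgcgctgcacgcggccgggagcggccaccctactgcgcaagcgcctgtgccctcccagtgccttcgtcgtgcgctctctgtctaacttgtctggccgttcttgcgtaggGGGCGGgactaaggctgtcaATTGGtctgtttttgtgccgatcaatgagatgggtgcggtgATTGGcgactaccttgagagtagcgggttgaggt
TCP1-MRPL18: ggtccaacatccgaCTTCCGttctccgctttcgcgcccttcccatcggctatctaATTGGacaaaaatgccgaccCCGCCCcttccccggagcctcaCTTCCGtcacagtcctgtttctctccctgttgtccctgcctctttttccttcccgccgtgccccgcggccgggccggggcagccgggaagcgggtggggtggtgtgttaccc
CCT6B-ZNF830: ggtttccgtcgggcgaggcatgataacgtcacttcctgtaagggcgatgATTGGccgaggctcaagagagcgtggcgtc
The stretch of 233 bases beside CCT3 held CCAAT 2 times and GGGCGG 1 time, that of 209 bases beside TCP1 held CGGAAG 2 times and CCAAT and GGGCGG 1 time each, and that of 79 bases beside CCT6B held CCAAT 1 time. GAANNTTC and TTCNNGAA, pairs of the inverted boxes that heat shock factors bind, had no match in these stretches.

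RefSeq windows, from 250 bases before to 50 after a start, were at hand for 8 of the 9 members, 10 windows in all; CCT6A had none. A match of the letters says nothing of binding. GAANNTTC was in 2 of the 10 windows, of TCP1 and CCT2, and in 6.77% of all 35116 windows, and TTCNNGAA was in 2 of the 10, of CCT4 and CCT6B, and in 7.74% of all.
GGGCGG was in 7 of the 10 windows and in 45% of all windows, CCAAT in 5 of the 10 and in 34.6%, and CGGAAG in 6 of the 10 and in 19.5%. CCT2 and CCT4 have 2 windows each, and those of CCT4 overlap. TATAAA was in 0 of the 10 windows and in 11.5% of all.

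The proteins that work with TRiC had lower transcript levels than the ring. All 6 prefoldin subunits were detected, from VBP1 at 18.7 and 29.9 TPM to PFDN5 at 126 and 110 TPM, with a median of 66.1 TPM beside 247 TPM for the ring. Of the 4 phosducin-like cofactors, 3 were detected, led by PDCL at 26.6 and 33.6 TPM, and TXNDC9 was the lowest of the 3 at 5.15 and 8.55 TPM. PDCL2, known from the testis, was listed at 0. The 3 chaperonin-like genes of the Bardet-Biedl group, whose products assemble the BBSome with TRiC, ranged from BBS12 at 1.01 and 1.52 TPM to MKKS at 12.4 and 12.5 TPM, so the ring median was 196-fold and 19.9-fold their means.
The mitochondrial chaperonin was at the level of the ring, with HSPD1 at 342 and 411 TPM and its lid HSPE1 at 220 and 256 TPM. HSF1, the main heat shock factor, had 118 TPM in both libraries, and HSF2 had a mean of 24.4 ± 3.46 TPM (n = 2). The 21 known substrates were all detected, with a median of 121 TPM, from WRAP53, which carries telomerase RNA to the Cajal body, at 31.1 and 26.6 TPM, to ACTG1, a cytoplasmic actin, at 4330 and 3704 TPM. ACTG1 had 16.2-fold the median of the ring.

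**Figure D3:**
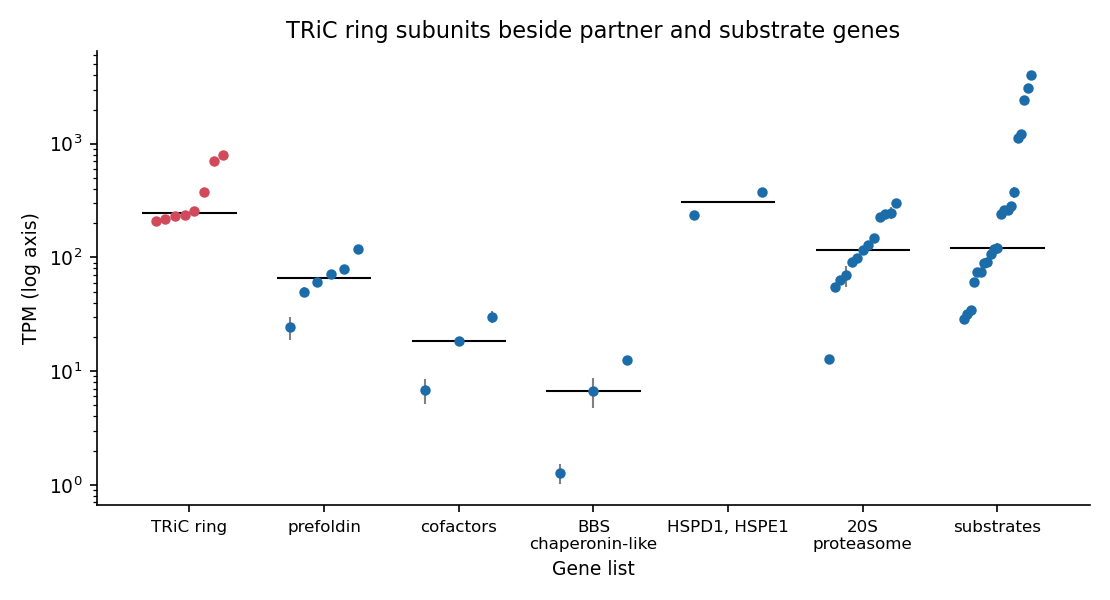
Mean TPM, on a log axis, of the 8 ring subunits (red) and of 6 lists of other genes (blue), with a grey line over the range of the 2 libraries and a black line at the median of each list. PDCL2, listed at 0, is not drawn. The ring median, 247 TPM, is above that of prefoldin, 66.1 TPM, and the substrates reach from 28.9 to 4017 TPM.

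The spread of the ring was set beside that of 2 other complexes with fixed subunit numbers. The SD of log2 mean TPM over the 8 ring subunits was 0.783. Over the 5 lowest it was 0.121, but these were picked after seeing their values, which makes a small SD likely. It was 0.768 over the 6 prefoldin subunits, whose highest was 4.86-fold the lowest. Over 13 matched subunits of the 20S proteasome, PSMB3 not being matched, it was 1.22, and PSMB4, at 323 and 279 TPM, was 23.5-fold PSMA2, at 12.6 and 13.0 TPM. That spread rested on PSMA2: without it, a choice made after seeing the data, the SD was 0.833 and the range 5.44-fold. Over all detected protein-coding genes it was 1.99. These are descriptions of the levels, with no test of the differences.

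Between the 2 libraries the subunits differed by little, and in a way that went with their GC content. The exact two-sided binomial test compared the counts of replicate 2 with those of replicate 1 after scaling by edgeR's TMM factors, and it covers counting error only. It compares libraries, not conditions. It called 42.2% of the 19714 genes tested at an adjusted p under 0.05, 22.1% as higher in replicate 2 and 20.1% as higher in replicate 1. Of the 9 members it called 7, 2 as higher in replicate 2 and 5 as higher in replicate 1, with a median log2 ratio of -0.11 over the members and 0.02 over all genes tested. The more counts a gene has, the smaller the ratio that this test calls. The ring subunits had 11272 (CCT2) to 37863 (CCT3) counts in both libraries together, so the share over all genes is not one at like depth.
CCT6A had 5577 and 7748 counts, a log2 ratio of 0.19 ± 0.025 (counting error; adjusted p = 2.42e-13, exact binomial test), and CCT8 had 7653 and 10413, a ratio of 0.16 ± 0.022 (adjusted p = 6.20e-13). CCT3 had 19171 and 18692 counts, a ratio of -0.32 ± 0.015 (adjusted p = 3.42e-100, exact binomial test), and CCT7 had 11622 and 11334, also -0.32. CCT4, at -0.19, CCT5, at -0.15, and CCT2, at -0.11, were also called. TCP1, at -0.05 (adjusted p = 0.0509, exact binomial test), and CCT6B, at 0.46 on 7 and 12 counts (adjusted p = 0.653), were not.
An edgeR exact test that assumed a biological coefficient of variation of 0.1 called 0 of the 9 members, with 0 at an unadjusted p under 0.05, and 7.69% of all genes. The common coefficient that edgeR estimated from these 2 libraries was 0.202.

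In the scale of TPM the sign could differ from that of counts. TCP1 was higher in replicate 2 by 0.16 on the log2 scale in TPM, while its scaled count was lower by 0.05, and its length in the tables was 1424 bases in replicate 1 and 1322 in replicate 2. Every ring subunit had a higher ratio in TPM than in scaled counts. CCT8, at 1844 and 1841 bases, had a ratio of 0.26 in TPM and 0.16 in scaled counts. The part of length in these differences was not tested.

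The log2 ratio fell with the GC content of the subunits' transcripts, from CCT6A, with a mean GC content of 40.0%, to CCT7, with 50.9%. Over the 8 ring subunits the correlation was -0.863 by Pearson and -0.857 by Spearman, as a description of 8 genes in the same pair of libraries. Over the 13544 genes that had 100 counts or more in the libraries together, Pearson's r was -0.617.
With the median trend of those 13544 genes removed, all 8 ring subunits were lower in replicate 2, from -0.19 (TCP1) to -0.46 (CCT4). All 8 were called, where 28.8% of 19048 genes were called, 14.3% as lower in replicate 2. That share, too, covers genes with far fewer counts, so it does not set the ring apart from genes of like depth. CCT6A turned to -0.34 and CCT8 to -0.20. The SD of the 8 ratios went from 0.194 to 0.099, beside 0.426 and 0.317 over those 13544 genes. The part of GC content in these ratios was not tested.
Genes of the other lists also differed between the libraries. Over all genes tested, 42.2% were called, and 28.8% with the trend removed. Those shares were not matched to the depth of these lists, so they do not set the lists apart. Of the 21 substrates, 20 were called, all 20 as higher in replicate 1, with a median of -0.28, and 15 were called without the trend, with a median of -0.13. Of the 13 proteasome genes 11 were called, 9 of them as higher in replicate 1, with a median of -0.25 and of -0.30 without the trend. Prefoldin had 4 of 6 called, 3 as higher in replicate 1, and 3 of 6 without the trend, where VBP1 turned from 0.45 to -0.41. HSPD1 was higher in replicate 2 by 0.17 and HSPE1 by 0.11, and with the trend removed these were -0.17 and -0.02. The cofactors had 2 of 3 tested genes called, PDCL at 0.33 and TXNDC9 at 0.50, and the chaperonin-like genes 1 of 3, BBS10 at 0.78, all as higher in replicate 2. With the trend removed PDCL, at 0.23, was still called, TXNDC9, at 0.12, and BBS10, at -0.08, were not, and MKKS, at -0.02 before, was called at -0.55. Of the factors, HSF1, at -0.20, was called and HSF2, at 0.13, was not; with the trend removed HSF1 was at 0.04 and not called, and HSF2 was called at -0.31.

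**Figure D4:**
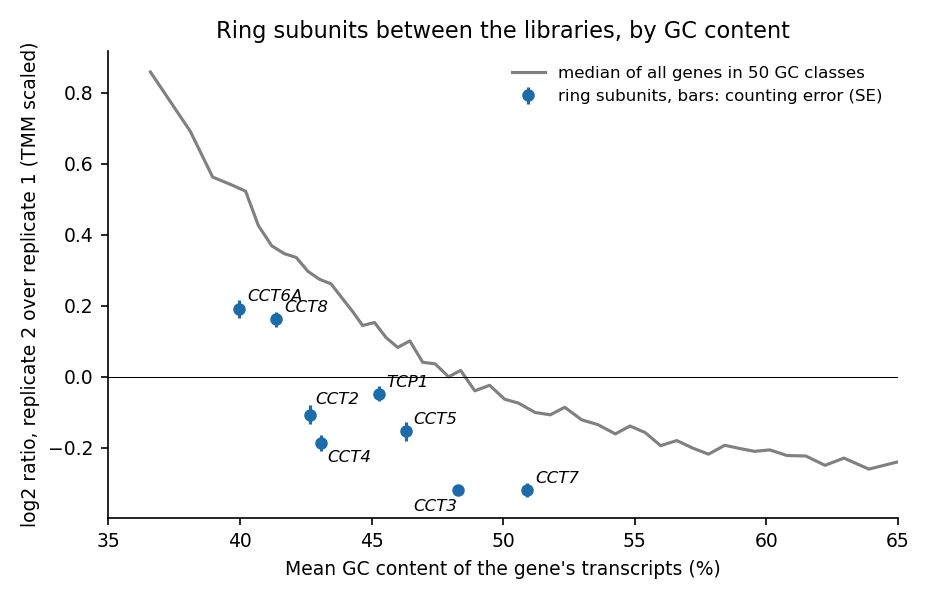
Log2 ratio of replicate 2 over replicate 1 against the mean GC content of the gene's transcripts, in percent. Points are the 8 ring subunits with their counting error (SE). The grey line is the median, in 50 classes of GC content, over the 13544 genes with 100 counts or more in the libraries together. All 8 points lie under the line, at ratios between -0.32 and 0.19.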

How the data were processed

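Poly(A)+ RNA of 2 replicates of 1 heat-shock group was sequenced, and the groups were taken from the labels, whose molecule field says genomic DNA while their protocol describes poly(A)+ RNA. The submitters' processing notes name Trimmomatic 0.36, STAR 2.6.1c and RSEM 1.3.1 with hg19, whereas the methods name featureCounts with Ensembl v87; the deposited tables have RSEM's columns. The authors deposited, per gene, an expected count (an estimated count that shares multi-mapped reads), a TPM and an FPKM value, and posterior means with credibility bounds, in 1 table per library and 1 pooled table. Pooled counts of the members lay within 0.0259% of the sum of the libraries. Both totals are given in the report, and 3 counts equal 0.133 CPM in replicate 1 and 0.112 CPM in replicate 2.

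Expected counts were rounded for the tests. The exact binomial test was conditional on the summed count, with TMM factors (edgeR 4.0.16) and Benjamini-Hochberg adjustment over genes with 10 or more counts in both libraries together. It was run on simulated counts drawn from the same binomial model, with no further spread and no GC trend. That run cannot say how well the calls hold in these libraries. Log2 ratios used a pseudocount of 0.5. The GC trend was the median in 50 classes of genes with 100 or more counts in both libraries together. Names, positions, lengths and GC content came from GENCODE 44 lifted to GRCh37, which matched 96.1% of identifiers, and promoter windows from RefSeq. The rule named all members, the highest and lowest gene of each list, pseudogenes, neighbouring genes and the 3 genes nearest in level. Where other genes were named, they were chosen after their values were seen. Alternatives were other units, lengths, scalings and thresholds, and leaving out each library. The members and lists were chosen with earlier results of these data known.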

Additional observations from a re-analysis of the deposited data

How the results depend on the processing

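The fold range of the ring, 3.83, was 3.84 in FPKM, 3.81 in posterior mean TPM, 3.79 in the pooled table, 3.73 with pseudogenes added to their parent and 3.38 in CPM, and 3.47 to 4.47 with 1 library left out. It rose to 5.32 per kb of the longest transcript and to 5.51 per kb of the MANE Select transcript, the last chosen after seeing the data, because the lengths that the tables use are shorter by unequal shares. CCT6A over CCT6B, 466 in TPM, was 474 in the pooled table, 478 with pseudogenes added, 506 per MANE Select kb, 708 in CPM, 918 per kb of the longest transcript and 361 in posterior mean TPM, and 460 to 471 with 1 library left out; it rests on 19 reads of CCT6B. Between 23 and 28 of the 28 pairs kept their order under all 6 alternatives. Detection was 8 of 9 members, or 9 at 0.1 TPM.

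Members called between the libraries were 7, or 8 with DESeq2 size factors or the GC trend removed, and 0 under an assumed coefficient of variation of 0.1, which is wider than counting error. Calls over all genes were 8314 of 19714, 1516 under that coefficient and 5490 of 19048 without the GC trend. Removing the trend reversed CCT6A to -0.34 and CCT8 to -0.20. TCP1 passed the threshold with DESeq2 size factors, at -0.06, and without the trend, at -0.19. Of the members' log2 ratios, 32 of 36 alternative values kept their direction and side of the threshold. These include 1 value per member with a pseudocount of 0.1, which kept the main adjusted p. Such a value could not change side of the threshold, so the count overstates how well the calls hold. No paired analysis was possible because there is only 1 group. With 1 group no test of a condition was possible, and the estimated common coefficient of variation, 0.202, rests on 2 libraries.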
